A study of Mus musculus with 8 samples.

Results

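The comparison set the spinal cord of mice that received MPTP and needling at acupoints against that of saline controls, and both differed from each other by treatment in more than 1 way at once. It uses 4 of the 8 arrays of the study, the 2 acupoint and the 2 control arrays, chosen by their titles, with each gene read from the single-symbol probe set that was brightest over all 8 arrays. That gave 19938 genes, of which 16026 lay above a filter on dim signals and were tested, and 3912 did not. All mice were male C57BL/6 mice, 6 weeks old, and all RNA was labelled as cervical spinal cord. Control mice were injected into the peritoneum with 100 µl of saline once a day for 4 weeks. Acupoint mice were given MPTP-HCl at 20 mg/kg of free base every 24 h over the same 4 weeks, and were held by hand and needled 2 h after MPTP at 48 h intervals, in 14 sessions, on both sides of the body, 3 mm deep at GB34 and 1 mm deep at LR3. The remaining 4 arrays came from mice given the same MPTP, either without needling or with needling at the hips (the non-acupoint group), and they entered the fit as a shared estimate of the spread.

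MPTP is turned by monoamine oxidase B in astrocytes into MPP+, which dopamine neurons take up and which blocks complex I of their mitochondria, and the dopamine neurons of the midbrain are its best known target. The spinal cord has no nigral dopamine neurons. It holds motor neurons, inhibitory interneurons that use GABA and glycine, and the peptide-rich relay of pain and touch in the dorsal horn, and it receives dopamine, serotonin and noradrenaline from fibres that descend from the brain. Needles at GB34 and LR3 lie in the leg and foot, whose sensory fibres enter the cord at lumbar levels. Because the control mice had neither MPTP nor needling, a difference in this comparison cannot be told apart into a part from MPTP, a part from needling and a part from handling.

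The plainest results were these. Of all genes tested, 9.55% were higher and 2.17% lower, and of the 3205 brightest genes 778 were higher. All list counts stand beside these shares. The lists were chosen with earlier results of these data known, so their counts are descriptions. After MPTP with acupoint needling, 13 of 20 genes of inhibitory transmission, 17 of 21 astrocyte markers and 10 of 24 genes of endoplasmic reticulum stress were higher than in controls. Without control replicate 2 these counts were 6, 7 and 4. The long nuclear RNAs Rian and Meg3 of the imprinted Dlk1-Dio3 region were lower, Rian by 4.47-fold, and so were 12 of 30 transcripts known to keep introns, 4 without control replicate 2. Of 30 skeletal muscle genes 18 were lower, some by larger folds, with wide gaps between arrays of the same group, and none were lower without control replicate 2. No gene passed the adjusted threshold between the acupoint group and either of the other MPTP groups.

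Values are log2 signals, so that a difference of 1 is 2-fold, and each group's values are given in the order of replicates 1 and 2. Array titles carry mouse numbers and the extraction text speaks of 2 samples per group, whereas the treatment text counts 9 mice in the control and MPTP groups. No source used here says whether RNA was pooled, so the p-values rest on a spread between samples that may be technical. Across genes, which are not replicates, the 2 control arrays correlated at 0.988, the 2 acupoint arrays at 0.985, and control replicate 1 with acupoint replicate 1 at 0.988. The number of arrays limits the precision: with 2 arrays against 2 the smallest exact permutation p for a gene is 0.333, so calls rest on limma's moderated test.

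Tissue markers separated replicates within each group. Averaged over 30 skeletal muscle genes, the control arrays were at 6.82 and 8.09 and the acupoint arrays at 6.46 and 5.49, against 5.43 to 5.76 on the other 4. Averaged over 22 genes of meninges and collagen, controls were at 7.53 and 6.48 and the acupoint group at 7.61 and 6.19, so replicate 1 was the high one in both groups. The proteoglycan Dcn of fibroblasts shows this pattern gene by gene, at 10.37 and 7.83 in controls and 10.48 and 7.66 in the acupoint group. Pmp2, a myelin protein of peripheral nerve, was at 8.06 and 3.73 in controls and 7.07 and 3.95 in the acupoint group. The 0 of 22 meningeal genes that passed in limma therefore stand beside a spread within the groups of over 1 log2 unit. Markers of spinal cord were bright on all 4 arrays: Mbp of myelin was at 11.96 to 12.05, Snap25 of synapses at 12.01 to 12.45, and the vesicular acetylcholine transporter Slc18a3 at 8.99 to 9.81. Cervical Hox genes such as Hoxa5 (8.16 to 8.60) and Hoxc6 (6.52 to 6.87) were detected, but so were Hoxd10 and Hoxc10, which mark lumbar cord. Hoxd10 was at 8.77 and 7.64 in controls and 9.07 and 8.79 in the acupoint group, against 4.58 on non-acupoint replicate 1. Whether tissue beyond the labelled cervical cord was included was not tested. The difference in Hoxd10 between the groups did not pass (log2 0.72, SE 0.92, limma adjusted p = 0.677), nor did that of any of the 12 thoracic to lumbar Hox genes tested, of which 11 were positive. Of 15 cervical Hox genes 12 were negative, and 1, Hoxd4, was lower (log2 -0.57, limma adjusted p = 0.0326), beside 2.17% lower over all genes tested. Their median was -0.13, and 0.001 with arrays centred on their medians, where 0 passed. The part of these tissue differences in the results below was not tested, beyond the fits without single arrays.

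**Figure D1:**
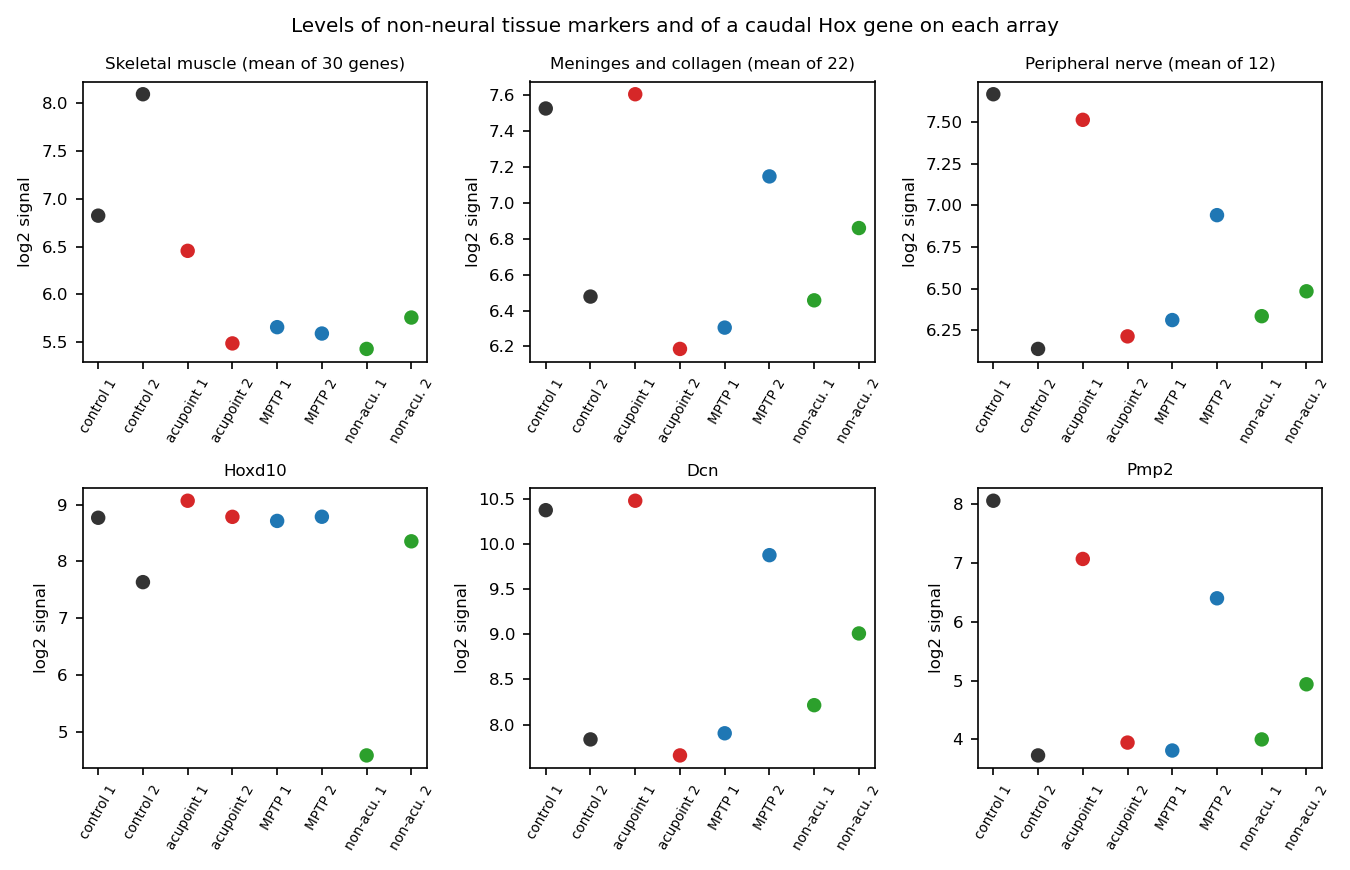
Each point is 1 array, with the group and replicate on the x axis and log2 signal on the y axis. The top row plots the mean over the tested genes of a marker list, and the bottom row plots single genes. Muscle genes are highest on control replicate 2 (8.09), while meningeal and nerve genes are high on control replicate 1 and acupoint replicate 1, and Hoxd10 is low only on non-acupoint replicate 1 (4.58).

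In all, 1878 of 16026 genes (11.7%) passed a limma adjusted p of 0.05. Of these, 1530 were higher in the acupoint group (9.55% of the genes tested) and 348 were lower (2.17%). The differences were small: 9 higher and 53 lower genes (0.0562% and 0.331%) reached 2-fold. The median over all genes tested was 0.061. No overlap between the arrays of both groups was more common, with 5328 genes higher (33.2%) and 2494 lower (15.6%), or 7822 in all (48.8%). With 2 arrays against 2, a share of 33.3% without overlap in either direction arises by chance. With genes cut by brightness into 5 equal bins, 6 of the higher calls lay in the dimmest bin and 778 in the brightest, while lower calls were spread at 48 to 78 in each. Fitted over every probe set of the array, those with 1 gene symbol gave 4.64% higher and 1.65% lower, those with several symbols 1.97% and 5.68%, and those with none 1.89% and 8.89%. Among the higher genes acupoint replicate 1 was the nearer to the control mean for 1240 of 1530 (81%). Their median difference was 0.40 on it against 0.53 on acupoint replicate 2. It was also the nearer for 9984 of all 16026 genes tested (62.3%), but for 166 of the 348 lower genes (47.7%). The split depended on scaling: after cyclic loess it was 923 higher and 529 lower, and with arrays centred on their medians, which moved the median gene from 0.061 to 0.19, it was 2706 and 166. Control replicate 2 carried many calls, since 249 genes passed without it (195 higher and 54 lower), against 1493 without control replicate 1. Without acupoint replicate 1, 3731 passed. Leaving out acupoint replicate 1 and control replicate 2 together, an alternative chosen after seeing the data, gave 4046 (3169 higher and 877 lower).

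**Figure D2:**
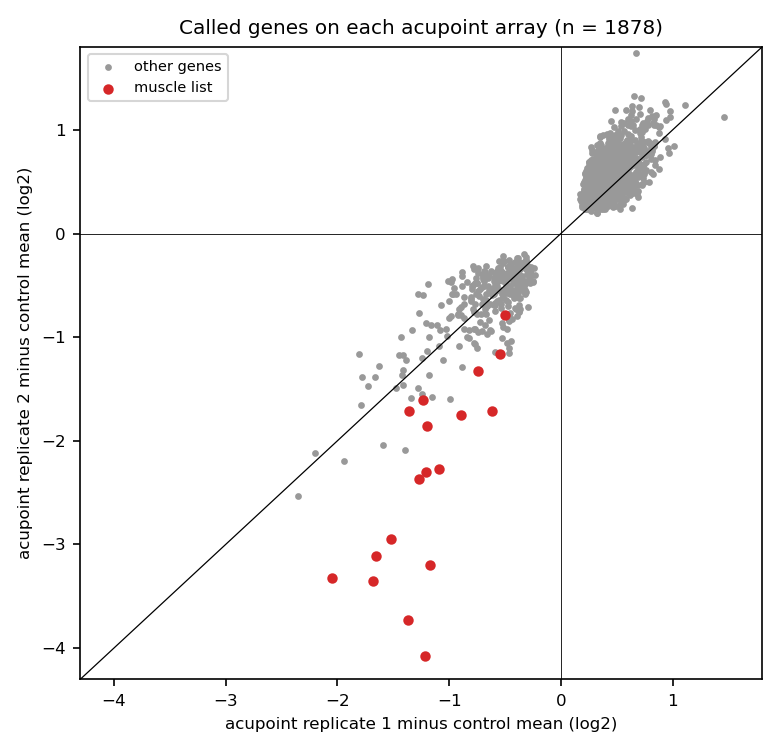
Each point is 1 of the 1878 called genes, with its log2 difference from the control mean on acupoint replicate 1 (x axis) and on acupoint replicate 2 (y axis), and the diagonal marks equal differences. All called genes lie on the same side of 0 on both arrays. Genes of the muscle list (red) lie far below the diagonal, with medians of -1.21 on replicate 1 and -2.29 on replicate 2.

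The largest positive differences came from genes of varied function. Sprr1a, a small protein made by injured neurons, was at 5.16 and 4.97 in controls and 6.52 and 6.19 in the acupoint group (log2 1.29, SE 0.18, limma adjusted p = 0.00502). Sprr1a had the largest fold among the higher genes, 2.45. The glycine receptor subunit Glra3 was at 6.60 and 6.43 in controls and 7.63 and 7.75 in the acupoint group (log2 1.17, SE 0.11, limma adjusted p = 0.00118). Hmgn5, a nucleosome-binding protein, was at 5.93 and 5.14 in controls and 6.21 and 7.27 in the acupoint group (log2 1.21, SE 0.33, limma adjusted p = 0.0448). For Hmgn5 the acupoint arrays differed by more than 1 log2 unit, and without control replicate 2 its adjusted p was 0.27. The mitochondrial carbonic anhydrase Car5b rose by 1.10 (SE 0.17), the galanin receptor Galr1 by 1.09 (SE 0.25), the secreted protease-like Pamr1 by 1.08 (SE 0.14) and the neuronal calcium sensor Hpcal4 by 1.05 (SE 0.14). Lgals3bp, a galectin-binding glycoprotein (1.02), the desaturase homologue Fads2b (1.01), Zcchc12 (1.00), Uprt (0.99), Zfp605 (0.99), Vwa5a (0.98), the sterol carrier Scp2 (0.97) and the protocadherin Pcdhb2 (0.96) made up the 15 largest. Fads2b and Pcdhb2 have close relatives that can share probes, so their values are uncertain. Galr1, Fads2b and Zfp605 were also lost without control replicate 2, at limma adjusted p of 0.147, 0.219 and 0.0988. Leaving out acupoint replicate 2 in its place, Hmgn5, Galr1, Fads2b and Zfp605 had adjusted p of 0.171, 0.0912, 0.148 and 0.0517, and Zfp605 had 0.0623 without control replicate 1.

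Among the genes with the smallest p were 3 bright ones that rose with little spread. The glucose transporter of the blood-brain barrier, Slc2a1, was at 10.05 and 9.86 in controls and 10.88 and 10.86 in the acupoint group (log2 0.92, SE 0.08, limma adjusted p = 0.000925). Clstn3, a synaptic adhesion protein, was at 9.71 and 9.65 and then 10.47 and 10.47 (log2 0.79, SE 0.07). Pnmal2 was at 9.41 and 9.26 and then 10.21 and 10.31 (log2 0.93, SE 0.08). In each, the gap between the groups was several times the gap within them, and all 3 stayed past the threshold under every alternative tried.

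**Figure D3:**
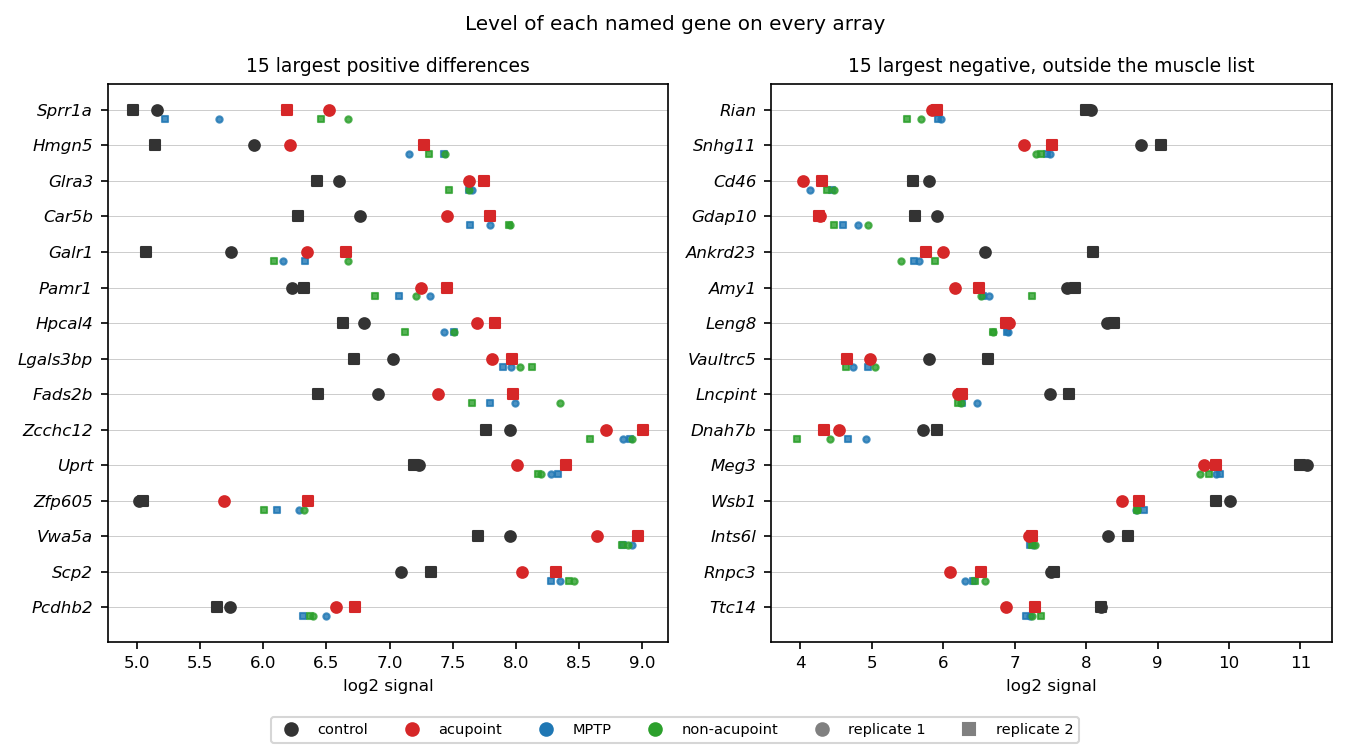
Log2 signal (x axis) of the 15 genes with the largest positive difference (left) and the 15 with the largest negative difference outside the muscle list (right), leaving out microRNA and small nucleolar RNA genes and predicted genes. Large symbols are control (black) and acupoint arrays (red), small symbols below them are the MPTP and non-acupoint arrays, circles are replicate 1 and squares replicate 2. Of the genes plotted Rian shows the widest gap between the groups, 8.07 and 8.00 in controls against 5.84 and 5.92, while for Ankrd23 control replicate 2 (8.09) stands apart from control replicate 1 (6.59).

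Among the largest negative differences outside the muscle list were several RNAs that stay in the nucleus. Rian, a long non-coding RNA transcribed from the maternal chromosome and host of small nucleolar RNAs, was at 8.07 and 8.00 in controls and 5.84 and 5.92 in the acupoint group. It fell 4.47-fold (log2 -2.16, SE 0.12, limma adjusted p = 0.000168) and had the smallest p of all genes. Meg3, its maternally expressed neighbour, was at 11.09 and 10.99 in controls and 9.65 and 9.82 in the acupoint group (log2 -1.31, SE 0.08, limma adjusted p = 0.000257). The neuronal host RNA Snhg11 was at 8.77 and 9.05 and then 7.13 and 7.52 (log2 -1.58, SE 0.14). Malat1, an abundant RNA of nuclear speckles, was at 11.51 and 11.47 and then 10.65 and 10.49 (log2 -0.92, SE 0.12), and the imprinted antisense RNA Airn was at 5.03 and 4.99 and then 4.24 and 4.33 (log2 -0.72, SE 0.14). These 5 are all that were tested of a list of 15 nuclear and imprinted non-coding RNAs; 5 of 5 fell, with a median of -1.31, and 4 fell without control replicate 2. That list was chosen with earlier results of these data known, so its count is a description. The share lower over all genes tested was 2.17%. Lncpint (-1.39) and the vault RNA gene Vaultrc5 (-1.40) fell as well. Of protein-coding genes, Cd46 (-1.52), a complement regulator, Gdap10 (-1.48), Ints6l (-1.22) of an Integrator-like family, Cplane1 (-1.01) of ciliogenesis and Rnpc3 (-1.21) of the minor spliceosome fell. Amy1 (-1.45) and Dnah7b (-1.38) fell too, but each has near-identical copies that can share probes. Ankrd23 (-1.46), a titin-binding protein of muscle, was at 6.59 and 8.09 in controls and 6.00 and 5.75 in the acupoint group, and the list of muscle genes did not hold it. Vaultrc5, Ankrd23 and Amy1 did not pass without control replicate 2 (limma adjusted p = 0.0732, 0.129 and 0.0533), and Ankrd23 did not pass without acupoint replicate 2 either (0.131).

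By transcript class of the RefSeq annotation, 22 of 460 long non-coding RNAs fell (4.78%) and 9 rose (1.96%). Of 117 microRNA genes 22 fell (18.8%) and 2 rose, and of 36 small nucleolar RNA genes 18 fell (50%) and 0 rose, with a median of -0.65. Protein-coding genes went the other way, with 1517 of 15212 higher (9.97%) and 276 lower (1.81%). The 3 classes of non-coding RNA were dim, with median levels of 5.33 to 5.71 against 7.17 for protein-coding genes. A probe set for a microRNA gene on these arrays reads the hairpin and any longer transcript that runs across it, and does not measure the mature microRNA. Genes of the Dlk1-Dio3 region, described next, are counted in these classes as well. Probe sets within 1 longer transcript are not separate members, so the shares are not traits of whole classes.

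The Dlk1-Dio3 region of chromosome 12 holds a paternally expressed set of coding genes and a maternally expressed run of non-coding RNAs, among them a large cluster of microRNA genes. It was looked at after the values of Rian and Meg3 were seen, in the fit with no filter on dim genes. Between Dlk1 and Dio3 there were 48 genes with a probe set, of which 24 fell and 0 rose, against 350 of 19938 genes lower (1.76%) and 6.85% higher in that fit. The median difference was -0.72, and 44 of 48 were negative. Of the 40 microRNA genes 20 fell, while of 257 microRNA genes elsewhere in the genome 22 fell (8.56%). The 3 protein-coding genes did not pass: Dlk1 was at 8.05 and 8.24 in controls and 8.34 and 7.80 in the acupoint group (log2 -0.073), the retrotransposon-derived Rtl1 was at 0.09 and the deiodinase Dio3 at 0.24. All 40 microRNA genes were matched in the RefSeq table of build GRCm38.p6, and their 76 mature arms have 74 different seeds, so they share a position and few share a seed. The hairpins with the 3 largest differences, all on the plus strand, are printed with the mature arms in capitals, at chr12:109740510-109740577, chr12:109711803-109711863 and chr12:109728129-109728202.
Mir377: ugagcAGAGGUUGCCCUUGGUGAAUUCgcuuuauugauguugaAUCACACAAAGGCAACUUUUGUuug
Mir380: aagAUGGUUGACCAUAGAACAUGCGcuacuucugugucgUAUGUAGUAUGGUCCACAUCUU
Mir539: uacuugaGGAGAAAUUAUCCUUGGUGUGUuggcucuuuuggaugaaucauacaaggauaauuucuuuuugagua
The mature arms of Mir377, with the seed (bases 2 to 8) in capitals, show 1 of these products.
mmu-miR-377-5p: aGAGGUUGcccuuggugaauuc
mmu-miR-377-3p: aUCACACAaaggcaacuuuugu
The Mir377 probe set was at 6.39 and 6.51 in controls and 4.10 and 3.91 in the acupoint group (log2 -2.44, SE 0.15, limma adjusted p = 0.000196 without the filter). Mir380 was at 5.32 and 5.51 and then 3.55 and 3.82 (log2 -1.73, SE 0.25), and Mir539 was at 5.73 and 5.67 and then 3.91 and 4.04 (log2 -1.72, SE 0.14). For all 3 both acupoint arrays lay far below both controls, below 4.30, the level of the filter on dim genes. The small nucleolar RNA gene DQ267102, inside Rian, fell as well (log2 -1.82, SE 0.14).

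**Figure D4:**
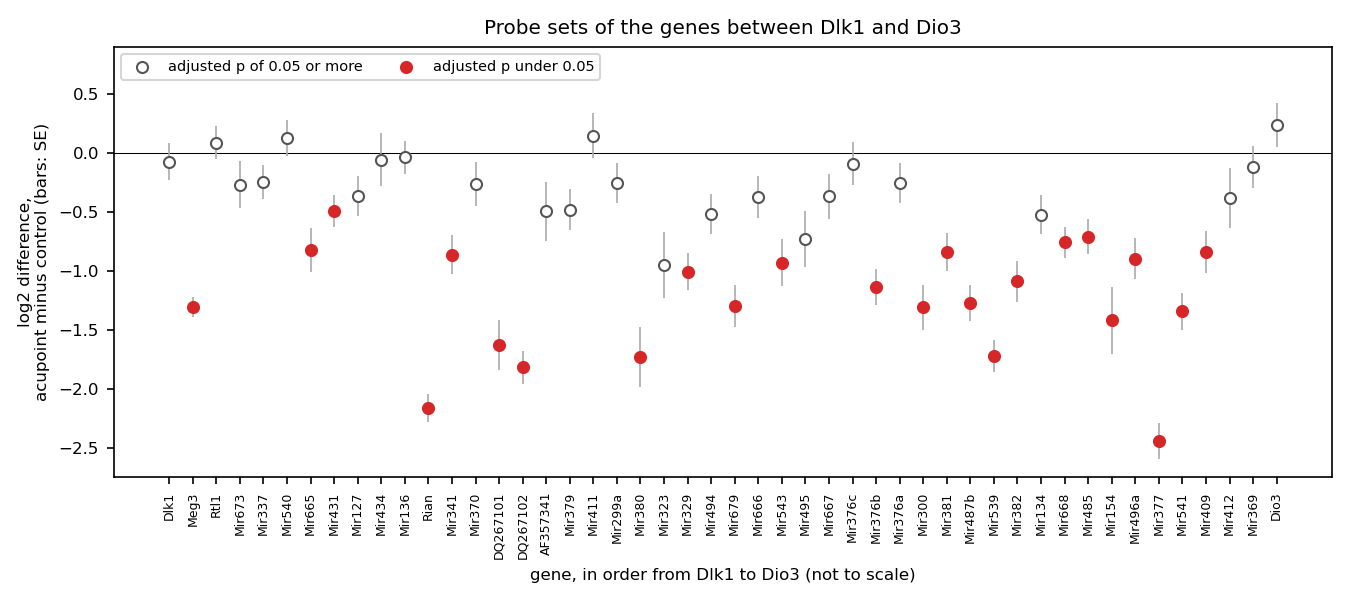
Log2 difference, acupoint minus control, with its SE (y axis) for the 48 genes between Dlk1 and Dio3, placed in their order along the chromosome and not to scale (x axis). Filled points passed an adjusted p of 0.05 in the fit without the filter. The coding genes at both ends and Rtl1 lie near 0, while 24 genes in between are lower, with Mir377 (-2.44) and Rian (-2.16) the lowest.

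Transcripts known to be held in the nucleus with introns still in place, many of them coding for splicing factors and their kinases, had 12 of 30 members lower and 0 higher, with a median of -0.30 against 0.061 over all genes. Leng8 was at 8.29 and 8.39 in controls and 6.92 and 6.87 in the acupoint group (log2 -1.44, SE 0.09, limma adjusted p = 0.000257). Wsb1, a ubiquitin ligase adaptor, was at 10.02 and 9.82 and then 8.51 and 8.75 (log2 -1.29, SE 0.10). Ttc14 fell by 1.13 (SE 0.13), the cyclophilin-like Nktr by 0.85 (SE 0.09), Pnisr by 0.74 (SE 0.14) and Rsrp1 by 0.63. The cyclin Ccnl2 and the kinase Clk4, both of splicing, fell by 0.62 and 0.57. The list of these transcripts was chosen with earlier results of these data known, and 2.17% of all genes tested fell. The members were not of 1 kind, since the splicing regulators Tra2a and Tra2b were at 0.32 and 0.28 without passing. The count was 4 without control replicate 2, 7 without control replicate 1, and 17 after cyclic loess.

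Of 20 genes for GABA and glycine signalling 13 rose and 0 fell, with a median of 0.47, against 9.55% higher and a median of 0.061 over all genes. Bright genes rose more often than dim ones in this comparison, and whether the list differs from genes of its brightness was not tested. Among the enzymes, Gad2, which makes GABA, was at 9.04 and 8.81 in controls and 9.48 and 9.58 in the acupoint group (log2 0.60, SE 0.09, limma adjusted p = 0.00649). Abat, which breaks GABA down, was at 10.76 and 10.70 and then 11.25 and 11.37 (log2 0.58, SE 0.07). Among the transporters, Slc6a11, the GABA carrier of astrocytes, was at 10.94 and 10.79 and then 11.50 and 11.41 (log2 0.59, SE 0.07). Receptor subunits rose across subtypes: after Glra3 came Gabrg1 (0.82, SE 0.13), Glra2 (0.80), Gabrb1 (0.74, SE 0.08), Gabra3 (0.65, SE 0.10) and Gabrb2 (0.51). In contrast Slc6a5 and Slc32a1, the glycine transporter and the vesicular carrier that define inhibitory terminals, were at 0.11 and 0.03, and the main adult glycine receptor subunit Glra1 was at 0.23, without passing. In bulk tissue a change in the share of a cell type and a change of RNA per cell cannot be told apart. The count was 6 of 20 when control replicate 2 was left out.

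Of 21 glutamate receptor and vesicular transporter genes 3 rose and 0 fell, beside 9.55% higher and 2.17% lower over all genes tested. They were the vesicular transporter Slc17a6 (0.71, SE 0.10), which loads glutamate in most excitatory neurons of the cord, and the AMPA receptor subunits Gria1 (0.56) and Gria3 (0.39). The list median was 0.11 and turned to -0.001 after cyclic loess. Whether the inhibitory and excitatory lists differ was not tested.

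The dorsal horn peptides and their receptors had 8 of 21 members higher and 0 lower, with a median of 0.41. The share higher over all genes tested was 9.55%. The largest difference was that of the neuropeptide Y receptor Npy1r, which was at 6.06 and 5.75 in controls and 6.67 and 7.0 in the acupoint group (log2 0.93, SE 0.15, limma adjusted p = 0.00786). Tacr1, the substance P receptor of projection neurons, was at 6.62 and 6.84 and then 7.40 and 7.23 (log2 0.58, SE 0.14), Grpr, the itch receptor, rose by 0.57 (SE 0.12) and Tacr3 by 0.64 (SE 0.16). Of the peptides, neurotensin Nts rose by 0.70, Nppc by 0.58, Trh by 0.47 and Npy by 0.38, while the precursors of substance P and somatostatin, Tac1 and Sst, were at 0.22 and 0.21 without passing. Among 8 opioid genes 3 rose: Pdyn, the dynorphin precursor, was at 6.20 and 5.93 and then 6.88 and 6.78 (log2 0.76, SE 0.12, limma adjusted p = 0.00804), Oprl1, the nociceptin receptor, rose by 0.48, and Pnoc, the nociceptin precursor, by 0.47. The opioid receptors Oprk1 (0.54), Oprm1 (0.31) and Oprd1 (0.26) and the precursor Penk (0.11) did not pass. The medians of both lists were positive under each scaling, but without control replicate 2 no member of either list passed, against 14 and 4 without acupoint replicate 1.

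Of 13 genes for enzymes and carriers of monoamines 3 rose, beside 9.55% of all genes tested. Maob, which converts MPTP, was at 8.22 and 7.87 in controls and 8.71 and 8.76 in the acupoint group (log2 0.69, SE 0.11, limma adjusted p = 0.0082). Maoa was at 8.26 and 8.08 and then 8.65 and 8.72 (log2 0.52, SE 0.09), and the aldehyde dehydrogenase Aldh1a1 was at 11.17 and 11.13 and then 11.33 and 11.47 (log2 0.25, SE 0.07). Tyrosine hydroxylase, Th, the first enzyme of dopamine synthesis, was at 6.41 and 5.58 in controls and 6.42 and 6.42 in the acupoint group (log2 0.43, limma adjusted p = 0.26), so control replicate 1 was level with the acupoint arrays. The dopamine transporter Slc6a3 was at 0.12 and the serotonin transporter Slc6a4 at 0.20, without passing. Of 17 dopamine and serotonin receptors 3 rose: Htr1a by 0.65 (SE 0.11), the ion channel receptor Htr3a by 0.58 (SE 0.13) and Drd5 by 0.50 (SE 0.13). The dopamine receptors Drd1 and Drd2 were at -0.04 and -0.12. Of each of these lists 1 gene passed without control replicate 2. None of 11 familial parkinsonism genes passed in limma. With acupoint replicate 1 left out Vps35 and Uchl1 were higher (limma adjusted p = 0.0129 and 0.0189) and Vps13c was lower (0.0291).

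Motor neuron genes had 5 of 17 members higher, with a median of 0.35, beside 9.55% higher over all genes tested. The choline transporter Slc5a7 was at 8.70 and 9.03 in controls and 9.67 and 9.46 in the acupoint group (log2 0.70, SE 0.12, limma adjusted p = 0.00933), and the acetylcholine-making enzyme Chat was at 6.51 and 6.88 and then 7.41 and 7.36 (log2 0.69, SE 0.16). Gfra1, a receptor for GDNF, rose by 0.36, the intermediate filament Prph by 0.35 and the muscarinic receptor Chrm2 by 0.32. Slc18a3 was at 0.41 and the fast motor neuron marker Chodl at 0.59, without passing. Genes shared by most neurons had 8 of 18 members higher, with a median of 0.25: the enolase Eno2 rose by 0.56 (SE 0.06), and the synaptic vesicle genes Syt1, Sv2b and Syp by 0.48, 0.49 and 0.35. Rbfox3, the NeuN antigen, was at -0.08. All 23 genes tested for kinesins, dynein and dynactin were positive and 8 rose, led by the kinesin heavy chains Kif5b (0.53, SE 0.08) and Kif5a (0.40, SE 0.07). In the fit without the filter, 8498 of all 19938 genes were negative. These transport genes were bright, with means of 9.88 to 10.13 on the 4 arrays. Their median was 0.17, and 0.05 after cyclic loess. Over the brightest of the 5 bins of genes the median was 0.16, and 778 of 3205 rose. Whether the list differs from genes of its brightness was not tested. Without control replicate 2 the counts were 1, 1 and 0 for these 3 lists. With that array left out potassium channels also went from 7 higher and 1 lower of 26 to 0, and sodium and calcium channels from 3 of 19 to 0. The potassium channel genes that rose included Kcnb2 (0.64, SE 0.14) and the astrocytic Kcnj16 (0.56, SE 0.13), and Kcnt1, a channel gated by sodium, fell by 0.33 (SE 0.09).

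Astrocyte markers gave the highest share of any list of cell markers: 17 of 21 rose, all 21 were positive, and the median was 0.49. The share higher was 9.55% over all genes tested, and bright genes rose more often than dim ones. Slc1a2, the main glutamate transporter, rose by 0.56. Agt, the angiotensin precursor, rose by 0.73 (SE 0.09). Mlc1, a membrane protein of astrocyte endfeet, was at 10.45 and 10.18 in controls and 11.06 and 11.14 in the acupoint group (log2 0.78, SE 0.10, limma adjusted p = 0.00435), and the water channel Aqp4 was at 11.05 and 10.79 and then 11.53 and 11.59 (log2 0.64, SE 0.11). Aldh1l1 rose by 0.63, Clu by 0.54, the lipid carrier Apoe by 0.49 and Aldoc by 0.37, and Gfap, which marks reactive astrocytes, by 0.48 (SE 0.11). S100b (0.11) and Slc4a4 (0.08) did not pass. Leaving out control replicate 2, 7 of 21 rose.

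Of 22 microglia and macrophage markers 7 rose, with a median of 0.30, beside 9.55% higher over all genes tested. The protease Ctss was at 9.33 and 9.38 in controls and 9.96 and 10.17 in the acupoint group (log2 0.70, SE 0.08, limma adjusted p = 0.00335), the integrin Itgam rose by 0.63, the complement genes C1qa and C1qb by 0.47 and 0.37, and the fractalkine receptor Cx3cr1 by 0.44. Tmem119, a marker of resident microglia, was at -0.02, and Tyrobp at -0.24. Of 13 antigen presentation genes 1 rose, Tapbp (0.53), and of 17 interferon-stimulated genes 1 rose, Ifit2 (0.65). Myelin and oligodendrocyte genes had 8 of 21 higher, led by Mag (0.52, SE 0.08), while Mbp and Mog were at 0.04 and 0.06 without passing, and 4 of 10 precursor genes rose, among them Pdgfra (0.53) and Lhfpl3 (0.65). Of 22 endothelial genes 4 rose, Slc2a1 and, by 0.53, 0.53 and 0.55, Mfsd2a, Cldn5 and Abcb1a of the blood-brain barrier. Other barrier genes, Ocln (0.28) and Slco1a4 (0.15), and the general endothelial genes Pecam1 (-0.14) and Cdh5 (0.14) did not pass. Without control replicate 2 the counts were 2 for microglia, 0 for myelin and precursor genes and 1 for endothelium, and without acupoint replicate 2 they were 3, 5, 2 and 6.

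**Figure D5:**
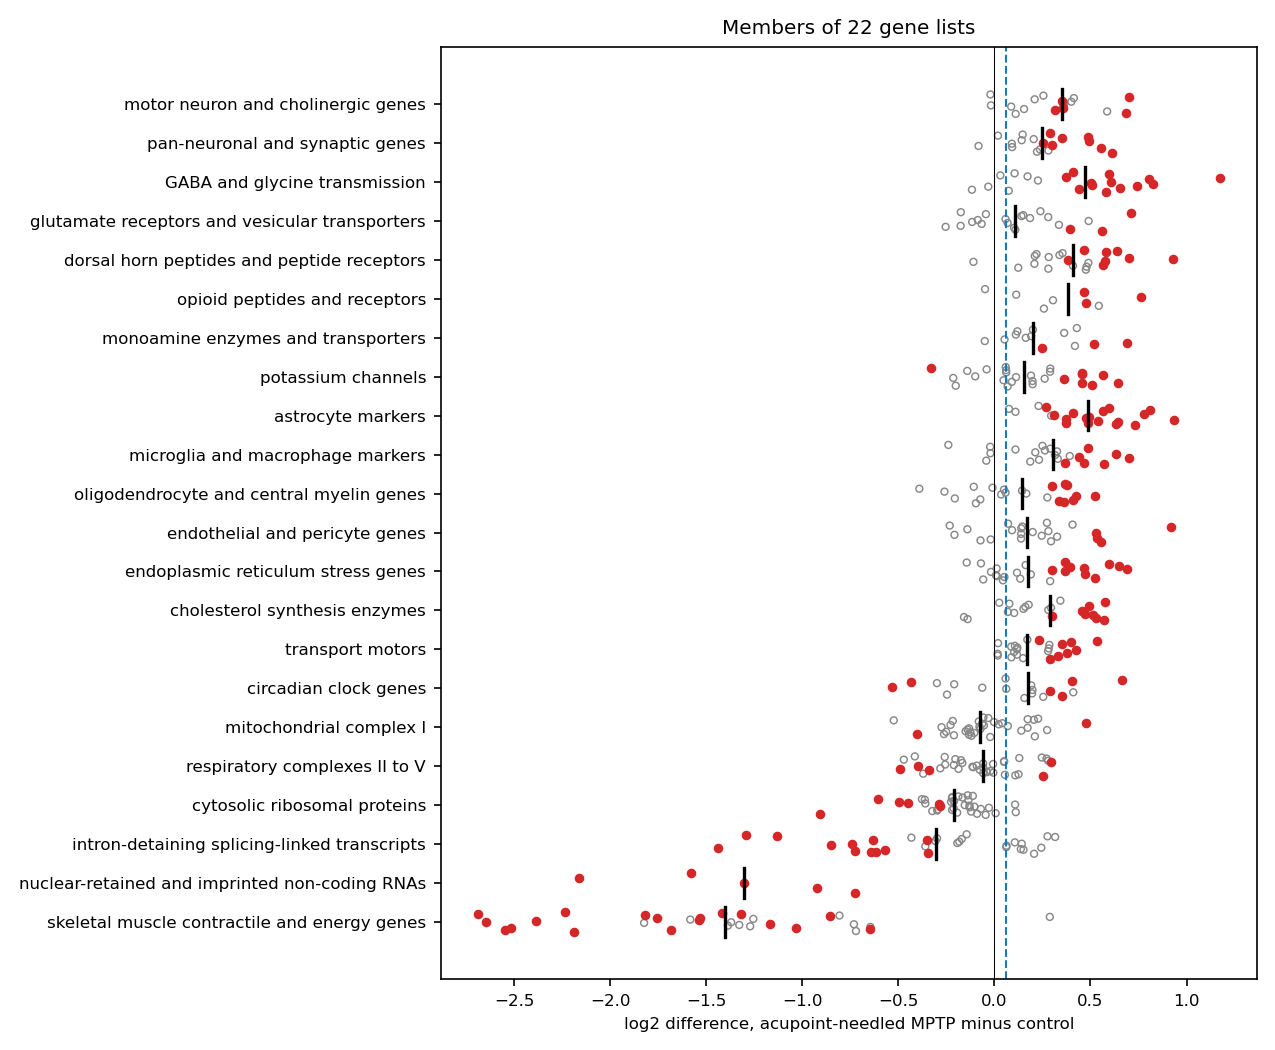
Each point is a tested gene of 1 of 22 lists, at its log2 difference, acupoint minus control (x axis). Red points passed a limma adjusted p of 0.05 and open points did not, the black bar is the list's median, and the dashed line is the median of all genes tested, 0.061. Astrocyte markers (median 0.49) and inhibitory genes (0.47) lie to the right, and nuclear RNAs (-1.31) and muscle genes (-1.40) to the left.

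Genes of endoplasmic reticulum stress had 10 of 24 members higher and 0 lower, with a median of 0.18, beside 9.55% higher over all genes tested. The list holds chaperones and enzymes of this compartment, and also stress sensors, transcription factors and their targets. Transcription of the chaperones is raised in the unfolded protein response, through a promoter element called the ER stress response element. Factors of the ATF6 family and NF-Y read this element. Hspa5, the chaperone BiP, was at 10.20 and 10.04 in controls and 10.85 and 10.78 in the acupoint group (log2 0.69, SE 0.08, limma adjusted p = 0.00349). The disulfide isomerase Pdia6 was at 9.24 and 9.16 and then 9.93 and 9.77 (log2 0.65, SE 0.08). Sel1l, of the degradation pathway, was at 9.56 and 9.54 and then 10.19 and 10.11 (log2 0.59, SE 0.07). Canx and Dnajc3 rose by 0.52 (SE 0.07) and 0.47 (SE 0.08), Pdia3 by 0.47, Xbp1 by 0.37 and Herpud1 by 0.37. Pdia4 rose by 0.39, but the average over its probe sets was at -0.023, so the call does not hold for that average. The members that mark the stress branches leading to growth arrest and cell death did not pass: Ddit3 was at 0.01, Atf4 at 0.04, Trib3 at -0.14 and Chac1 at 0.05. Members outside those branches also failed to pass, so the calls do not split the list by branch. Among them, Manf and Creld2 were at 0.01, Atf6 at -0.06, Calr at 0.13, Sdf2l1 at 0.16 and Dnajb9 at 0.19. In the fit that left out control replicate 2, 4 of 24 rose.

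The element was searched as the letters CCAAT, any 9 bases, and CCACG, on both strands of RefSeq promoter windows of build GRCm38.p6, which run from 250 bases before to 50 bases after the gene's start. It was present in 37 of 27025 genes (0.137%), in 5 of the 10 list genes that rose (Hspa5, Hsp90b1, Dnajc3, Pdia6 and Canx) and in 3 of the 12 others that had a window (Calr, Creld2 and Syvn1, at 0.13, 0.01 and -0.07). Of the 19 genes tested that held it, the same 5 were higher. The list was made of known members and targets of this pathway, so the share in it is a description and no independent evidence. The 250 bases before the start of 4 of the genes that rose are printed with the fixed letters of the element in capitals. They are at chr2:34771840-34772089 (plus strand), chr12:17266339-17266588 (plus), chr11:50325674-50325923 (minus) and chr14:118937682-118937931 (plus).
Hspa5: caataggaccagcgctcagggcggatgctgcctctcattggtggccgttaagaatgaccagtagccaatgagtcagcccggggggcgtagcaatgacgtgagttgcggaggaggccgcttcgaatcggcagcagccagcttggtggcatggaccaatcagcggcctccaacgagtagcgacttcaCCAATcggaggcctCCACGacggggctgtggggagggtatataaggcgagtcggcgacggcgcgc
Pdia6: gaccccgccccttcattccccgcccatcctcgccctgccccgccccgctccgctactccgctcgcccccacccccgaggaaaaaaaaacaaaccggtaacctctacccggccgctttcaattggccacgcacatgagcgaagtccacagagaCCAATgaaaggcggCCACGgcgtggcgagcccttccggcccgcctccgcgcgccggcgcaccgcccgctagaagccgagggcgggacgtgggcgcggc
Canx: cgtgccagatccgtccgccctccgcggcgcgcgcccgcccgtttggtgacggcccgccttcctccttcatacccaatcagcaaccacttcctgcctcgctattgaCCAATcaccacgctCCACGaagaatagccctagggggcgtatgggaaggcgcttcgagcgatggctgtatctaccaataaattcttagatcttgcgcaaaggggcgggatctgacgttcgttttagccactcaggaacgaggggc
Dnajc3: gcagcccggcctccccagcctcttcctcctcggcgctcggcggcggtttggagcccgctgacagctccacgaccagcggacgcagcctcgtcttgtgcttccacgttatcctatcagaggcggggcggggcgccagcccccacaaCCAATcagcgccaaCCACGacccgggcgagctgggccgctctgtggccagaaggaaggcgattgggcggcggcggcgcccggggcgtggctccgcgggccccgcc
The element ends 46, 79, 126 and 86 bases before the start in this order, in the same orientation as the gene in all 4.

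Enzymes of cholesterol synthesis and its carriers had 8 of 20 members higher and 0 lower, with a median of 0.29. The share higher over all genes tested was 9.55%. Stard4, a sterol carrier, was at 8.02 and 7.81 in controls and 8.47 and 8.51 in the acupoint group (log2 0.58, SE 0.09, limma adjusted p = 0.0082). Hmgcs1, the entry enzyme, rose by 0.51 (SE 0.11), Ebp by 0.53 (SE 0.11), Cyp51 by 0.57 (SE 0.14), and Hsd17b7, Lss, Pmvk and Fdps by 0.47, 0.45, 0.49 and 0.30. Sqle (0.08), Insig1 (0.07) and Srebf2 (0.03) did not pass. The count was 0 without control replicate 2 and 2 without acupoint replicate 2. Of 19 heat shock genes 4 rose, of which 2, Hspa5 and Hsp90b1, also belong to the list of the endoplasmic reticulum; Hspb1 (0.58, SE 0.12) and Hsp90aa1 (0.33) were the others. Of the heat shock genes 1 rose without control replicate 2 and 12 without acupoint replicate 1.

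Genes for ribosomal proteins lay below the typical gene, with 6 of 37 lower, 0 higher and a median of -0.21. The shares over all genes tested were 2.17% lower and 9.55% higher. Rpl12 was at 5.72 and 5.57 in controls and 4.64 and 4.83 in the acupoint group (log2 -0.91, SE 0.17, limma adjusted p = 0.0116), Rps28 fell by 0.60 (SE 0.13) and Rps12 by 0.45 (SE 0.08). The count was 20 after cyclic loess, 0 without control replicate 2 and 10 without acupoint replicate 2. Many processed copies of these genes lie in the genome and can share probes. Complex I, the enzyme that MPP+ blocks, had 1 of 35 subunits higher (Ndufs1, 0.48) and 1 lower (Ndufa3, -0.40), with a median of -0.073 that turned to 0.061 when arrays were centred on their medians. Complexes II to V had 2 of 37 higher, Sdha (0.29) and Atp5a1 (0.25), and 3 lower, Atp5l (-0.49), Cox6b1 (-0.40) and Atp5j2 (-0.34). Their median of -0.058 turned to 0.075 under the same centring. Both respiratory lists had 0 calls without control replicate 2, and with acupoint replicate 1 left out they had 6 higher each, and 1 and 5 lower.

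Of 18 circadian genes tested, 4 rose and 2 fell: the repressors Nr1d1 and Per3 fell by 0.53 (SE 0.07) and 0.44 (SE 0.12), and the nuclear receptors Rorb and Rora and the repressors Bhlhe41 and Cry2 rose by 0.67, 0.41, 0.35 and 0.29. Nr1d1 was at 9.72 and 9.78 in controls and 9.22 and 9.21 in the acupoint group. Per2 (-0.30) and Cry1 (0.41) did not pass, and no source used here gives the hour of tissue collection. Without control replicate 2, Rorb and Nr1d1 passed, with 1 gene higher and 1 lower. Immediate early genes, which neurons switch on within minutes of activity, had 3 of 20 higher and 1 lower. The shares over all genes tested were 9.55% and 2.17%. Of the 20, 12 were negative, with a median of -0.10 that turned to 0.033 when arrays were centred on their medians. Ier5 was at 5.62 and 5.44 and then 6.34 and 6.35 (log2 0.82, SE 0.17), Fos was at 6.29 and 6.01 and then 6.67 and 6.66 (log2 0.52, SE 0.13), Jun rose by 0.32 (SE 0.09) and Jund fell by 0.30 (SE 0.08). Npas4 and Arc, which follow synaptic activity most closely, were at -0.17 and -0.09 without passing, and 0 of 20 passed without control replicate 2. Of 22 glucocorticoid-responsive genes 3 rose, the chaperone Fkbp5 (0.65, SE 0.15), the receptor Nr3c1 (0.44) and the glutamine synthetase Glul (0.31), while Per1 (-0.21), Sgk1 (-0.08) and Tsc22d3 (0.25) did not pass. None of the glucocorticoid list rose without control replicate 2, and 9 rose without acupoint replicate 1.

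Skeletal muscle genes had the largest negative differences, and 18 of 30 fell, with a median of -1.40. The share lower over all genes tested was 2.17%. Ttn, the giant spring protein titin, was at 7.59 and 8.13 in controls and 6.34 and 4.91 in the acupoint group (log2 -2.23, SE 0.38, limma adjusted p = 0.0093). The troponin T of fast fibres, Tnnt3, was at 8.64 and 10.18 and then 7.36 and 6.08 (log2 -2.69, SE 0.48, limma adjusted p = 0.0108). For both genes the arrays of a group lay far apart, with control replicate 2 the highest and acupoint replicate 2 the lowest. Myh4, the myosin of the fastest fibres, was at 8.29 and 8.69 and then 7.27 and 4.41, so acupoint replicate 1 was nearer to the controls than to acupoint replicate 2. The calcium pump Atp2a1 (-2.55), the creatine kinase Ckm (-2.52), the light chains Myl1 (-2.38) and Mylpf (-1.54), the actin Acta1 (-2.19), Tnnc2 (-1.82), nebulin Neb (-1.76), Actn3 (-1.68) and Pgam2 (-1.53) fell as well. For all 18 acupoint replicate 1 was the nearer to the control mean, as it was for 62.3% of all genes tested. Without control replicate 2 none of the 30 fell and 1, the glycogen phosphorylase Pygm, was higher (limma adjusted p = 0.049), and without acupoint replicate 2 the count was 2 lower. Spinal cord does not contain skeletal muscle fibres. The part of carried-over tissue in these levels was not tested.

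Values of a few of these genes in the other MPTP groups are given side by side. All 3 contrasts use the same control arrays and the genes were picked for their difference in the acupoint group, so the values are not independent and a likeness between them is no result. Rian was at -2.16 in the acupoint group, -2.09 after MPTP alone and -2.44 with hip needling, each minus control. Glra3 was at 1.17, 1.13 and 1.03, Hspa5 at 0.69, 0.59 and 0.44, Mlc1 at 0.78, 0.76 and 0.70 and Slc2a1 at 0.92, 0.86 and 0.98, in the same order. Sprr1a was at 1.29 in the acupoint group, 0.37 after MPTP alone and 1.5 with hip needling.

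Set directly against the other MPTP groups, the acupoint arrays gave 0 genes past the limma adjusted threshold in either comparison, where 201 genes (1.25%) and 604 genes (3.77%) had an unadjusted p under 0.05. Of the 1878 genes called against controls, 29 had an unadjusted p under 0.05 against MPTP alone and 104 against hip needling. Sprr1a was 0.92 higher than after MPTP alone (5.65 and 5.22 there, unadjusted p = 0.000568), and Jun was 0.30 higher (8.01 and 8.09 there, unadjusted p = 0.007). Both are genes that neurons induce after axon injury, both fail the adjustment, and against hip needling they were at -0.21 and 0.16. Against controls, 5 of 17 tested genes of sensory ganglion and nerve injury rose, these 2 among them, and 0 fell. The shares over all genes tested were 9.55% higher and 2.17% lower. Of the 17, 11 were positive and 6 negative, with a median of 0.29, which was 0.07 without control replicate 2. Atf3 (0.31), Sox11 (0.30) and Gap43 (0.06) did not pass against controls. Scn10a (-0.76), Csrp3 (-0.73), Mrgprd (-0.63), Avil (-0.45) and Trpv1 (-0.41) lay below controls, also without passing. Against hip needling, the calcium channel subunit Cacng5 (0.43), the phosphatase Dusp4 (0.56), Banp (0.49) and Hpcal4 (0.45) were higher, and Fkbp5 (-0.71), Gpd1 (-0.48), Nde1 (-0.42), Rab31 (-0.41) and Polr2k (-0.51) were lower, at unadjusted p of 0.000841 to 0.00904 while their adjusted p was 0.936 and the smallest over all genes was 0.411. Fkbp5 and Gpd1, both induced by glucocorticoids, were at 7.57 and 8.02, and 9.70 and 9.76, in the acupoint group against 8.35 and 8.66, and 10.06 and 10.37, with hip needling. Without acupoint replicate 2 the comparison with hip needling gave 622 genes, and with MPTP alone 3, in fits where acupoint replicate 1 stands alone and is assumed to vary like the other groups.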

How the data were processed

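Per the labels' protocols, 300 ng of total RNA per sample was labelled as fragmented, biotinylated cDNA for Affymetrix whole-transcript arrays. For 35557 probe sets on 8 arrays the authors deposited values on a log2 scale; Affymetrix Expression Console and RMA appear, without versions, in the submitters' processing notes, and RMA corrects background, equalises arrays and summarises probes. That the log has base 2 was taken from how RMA works and the values' range. No scanner file or scan date entered the work, and batches were not tested. RMA values hold no measure of background per probe set.

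By the platform annotation, 21789 probe sets had 1 gene symbol, 1621 had several and 12147 had none. Of the first, 21698 were found in the RefSeq table of GRCm38.p6. Each gene is its single-symbol probe set with the highest mean over 8 arrays, kept where that mean exceeded the 30th percentile (log2 4.30). Groups come from the labels. limma 3.58.1 (R 4.3.3) fitted group means over the 8 arrays (lmFit, eBayes with a trend, 4 residual and 5.34 prior degrees of freedom), with two-sided p-values and Benjamini-Hochberg adjustment within each contrast. Genes said to have risen or fallen had an adjusted p under 0.05; no overlap means that both arrays of a group lie beyond both of the other. The fit was tested on simulated data.

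The rule for naming took genes with an adjusted p under 0.05 and no overlap: the 15 largest in each direction (15 more negative ones outside the muscle list) and the 10 smallest p, with microRNA and small nucleolar RNA genes and predicted genes counted but not named. Vaultrc5, a small RNA, was named because the annotation classes it as a long non-coding RNA. From each list it took up to 8 members with the smallest p and members that define it. Against the other MPTP groups it took called genes, up to 5 in each direction, at an unadjusted p under 0.01. Other members, and the genes of the Dlk1-Dio3 region, were chosen after their values were seen. The members and the 45 lists were chosen with earlier results of these data known, and lists are described by counts and medians, with no test. Deviations of equally numbered control and acupoint arrays correlated at 0.174, and those of other pairs of groups at -0.328 to 0.158, so the replicate numbers were not taken to pair the samples. The alternatives were other scalings (quantile, cyclic loess, centring on the median), filters, no trend, only the 4 arrays compared, array weights, averaged probe sets, the replicate number as a block and leaving out each array. Figures used Python 3.11.15 and matplotlib 3.10.9.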

Additional observations from a re-analysis of the deposited data

Results flagged for a closer look

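Probe sets without a gene symbol are in none of the comparisons by gene, and only their shares are given above. In a limma fit over every probe set, 1080 of 12147 (8.89%) had an adjusted p under 0.05 and were lower in the acupoint group, and 230 (1.89%) were higher. In the same fit 359 of 21789 probe sets with 1 symbol were lower (1.65%) and 1011 higher (4.64%). The median signal of the probe sets without a symbol was 4.75 on both control arrays and 4.39 and 4.29 on the acupoint arrays. What these probe sets measure is not stated in the annotation used here, and the source of the difference was not tested.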

How the results depend on the processing

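Of 213 named genes that passed, 42 kept call and direction under every alternative. The 1 reversal was Pdia4, at -0.023 when probe sets were averaged per gene. The total of 1878 genes (1530 higher, 348 lower) became 2872 (2706, 166) with arrays centred on their medians and 1023 (777) with no trend. It was 135 (91, 44) with only the 4 arrays compared, a fit with fewer samples, and 667 (541, 126) with array weights, while cyclic loess gave 923 higher and 529 lower. With 1 array left out, totals ran from 249 (without control replicate 2) to 3731 (without acupoint replicate 1), higher genes from 195 to 3037 and lower genes from 54 to 694. Without acupoint replicate 1 and control replicate 2 together, chosen after seeing the data, the counts were 4046, 3169 and 877, and 1 gene passed against MPTP alone. Against MPTP alone, 0 to 3 genes passed with 1 array left out, and against hip needling 0 to 622, with 622 without acupoint replicate 2, 12 without non-acupoint replicate 1 and 3 without non-acupoint replicate 2. The replicate block gave 1397 genes (1137 higher, 260 lower), though the replicate numbers were not taken to pair the samples. Where not named, the cause was not tested. List medians changed sign for 11 lists under a scaling, all between -0.13 and 0.11 at first. Arrays give no counts, and the dimmest genes gave few higher calls.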
